A study of Mus musculus with 2 samples.

Results

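The mitoribosome is the ribosome inside mitochondria. It translates the 13 mRNAs of the mitochondrial genome, which all encode subunits of the respiratory chain and of ATP synthase. Its ribosomal RNAs come from the mitochondrial genome, whereas every one of its proteins is encoded in the nucleus, made in the cytosol and imported. Many of these proteins have a counterpart in bacterial ribosomes, and others were gained in the mitochondrial line. In fat, mitochondrial translation supplies part of the respiratory chain that adipocytes need for lipid synthesis, for oxidation and, in thermogenic adipocytes, for heat production.

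Members were all genes of the tables whose symbol is Mrpl or Mrps followed by a number and at most 1 letter, without pseudogenes, a rule that uses the symbol alone and no measured value. There were 77 such genes among 43346 annotated genes. Of these, 48 carried an Mrpl symbol and 29 an Mrps symbol. By position in the ribosome, 26 belong to the small subunit, of which 16 have a bacterial counterpart and 10 are mitochondria-specific. Another 50 belong to the large subunit, of which 29 have a bacterial counterpart and 21 are mitochondria-specific. The large-subunit group includes Mrps30 and Mrps18a, whose symbols name the small subunit. The last gene, Mrps36, matches the symbol rule but encodes a subunit of the oxoglutarate dehydrogenase complex and not a ribosomal protein. Mrpl33, a further large-subunit gene, was not analysed here. All 77 genes lie on autosomes, spread over 17 chromosomes, with 11 on chromosome 11.

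The data are 2 polyA RNA-seq libraries, replicate 2 and replicate 1 of a single group, made from a subcutaneous fat pad of 8-week-old C57BL/6J mice, male and female littermates pooled, with no treatment named. By their labels they are biological replicates with a tissue sample each, although both cite the same donor record. Which animals went into which sample is not given, so their spread may in part be technical. With 1 library on each side there was no test of a difference, and no p-value was computed. All ratios are replicate 2 over replicate 1.

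Replicate 2 had 58687668 and replicate 1 had 54752739 estimated counts. All 10 white adipocyte markers were detected in both libraries, at 210 to 6723 TPM in replicate 2 and 88.4 to 1890 TPM in replicate 1, and all 10 were over 2-fold higher in replicate 2. All 5 thermogenic adipocyte markers, which mark a fat cell rich in mitochondria, were over 2-fold higher in replicate 2 too, with a sum of 907 TPM in replicate 2 and 337 TPM in replicate 1. TPM is a relative abundance that takes transcript length into account. Markers of glandular or tract epithelium summed to 14.0 TPM in replicate 2 and 1075 TPM in replicate 1, with all 8 over 2-fold lower in replicate 2. All 6 uterus markers and all 5 smooth muscle markers were over 2-fold lower in replicate 2 as well. Their summed levels were 34.4 TPM in replicate 2 and 569 TPM in replicate 1 for uterus, and 631 TPM in replicate 2 and 5238 TPM in replicate 1 for smooth muscle. The libraries therefore differed in the markers of cell types they carried, and the part of this in the ratios below was not tested. In bulk tissue, fewer cells of a type and less RNA per cell cannot be told apart.

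All 77 genes were detected at 1 TPM or more in both libraries. The same held for 29.4% of all annotated genes and for 55.5% of protein-coding genes. The median gene had 40.1 TPM in replicate 2 and 42.3 TPM in replicate 1. The 77 genes together took 0.358% of all TPM in replicate 2 and 0.417% in replicate 1. No member had fewer than 177 counts in either library, so none of the levels rested on a handful of reads. Mean TPM over both libraries was at least 10 for 68 genes, at least 50 for 32 genes and at least 100 for 6 genes.

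The transcript levels of these proteins, most of which are present once per ribosome, spanned a 115-fold range of mean TPM. TPM divides counts by effective transcript length, which differed widely. It was 478 nt in replicate 2 and 395 nt in replicate 1 for Mrpl17, the highest by TPM. For Mrpl47, the lowest, it was 3064 nt in replicate 2 and 3033 nt in replicate 1. Mean counts, scaled between the libraries as below, ran from 192 to 5705, with Mrpl10 and not Mrpl17 highest. Mrpl17, a protein at the rim of the peptide exit tunnel, was the highest, with 232 TPM in replicate 2 and 302 TPM in replicate 1, or 267 ± 49.0 TPM (SD, n = 2). It was followed by Mrpl52, a mitochondria-specific large-subunit protein, with 102 TPM in replicate 2 and 208 TPM in replicate 1. Mrps16, a small-subunit protein with a bacterial counterpart, had 137 TPM in replicate 2 and 150 TPM in replicate 1. Mrps34, which is mitochondria-specific, had 103 TPM in replicate 2 and 173 TPM in replicate 1. Thus Mrpl17 was the highest in both libraries, whereas the order of the next 3 differed between them.

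Next in mean TPM were Mrps24, Mrpl42, Mrps18b, Mrpl14, Mrps21 and Mrpl10, with means between 89.6 and 128 TPM. The 10 highest genes held 31.9% of the members' TPM in replicate 2 and 35.3% in replicate 1. At the low end, Mrpl47, another protein at the tunnel exit, had 2.02 TPM in replicate 2 and 2.62 TPM in replicate 1, a mean of 2.32 ± 0.42 TPM (SD, n = 2). Mrpl1, a protein of the mobile stalk at the tRNA exit side, had 2.62 TPM in replicate 2 and 2.33 TPM in replicate 1. Mrpl19 had 2.44 TPM in replicate 2 and 4.20 TPM in replicate 1. Mrpl47 and Mrpl1 changed places between the libraries. Mrps31, Mrpl50, Mrpl35, Mrpl11 and Mrpl39 completed the 8 lowest, with means of 5.25 to 8.65 TPM.

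**Figure D1:**
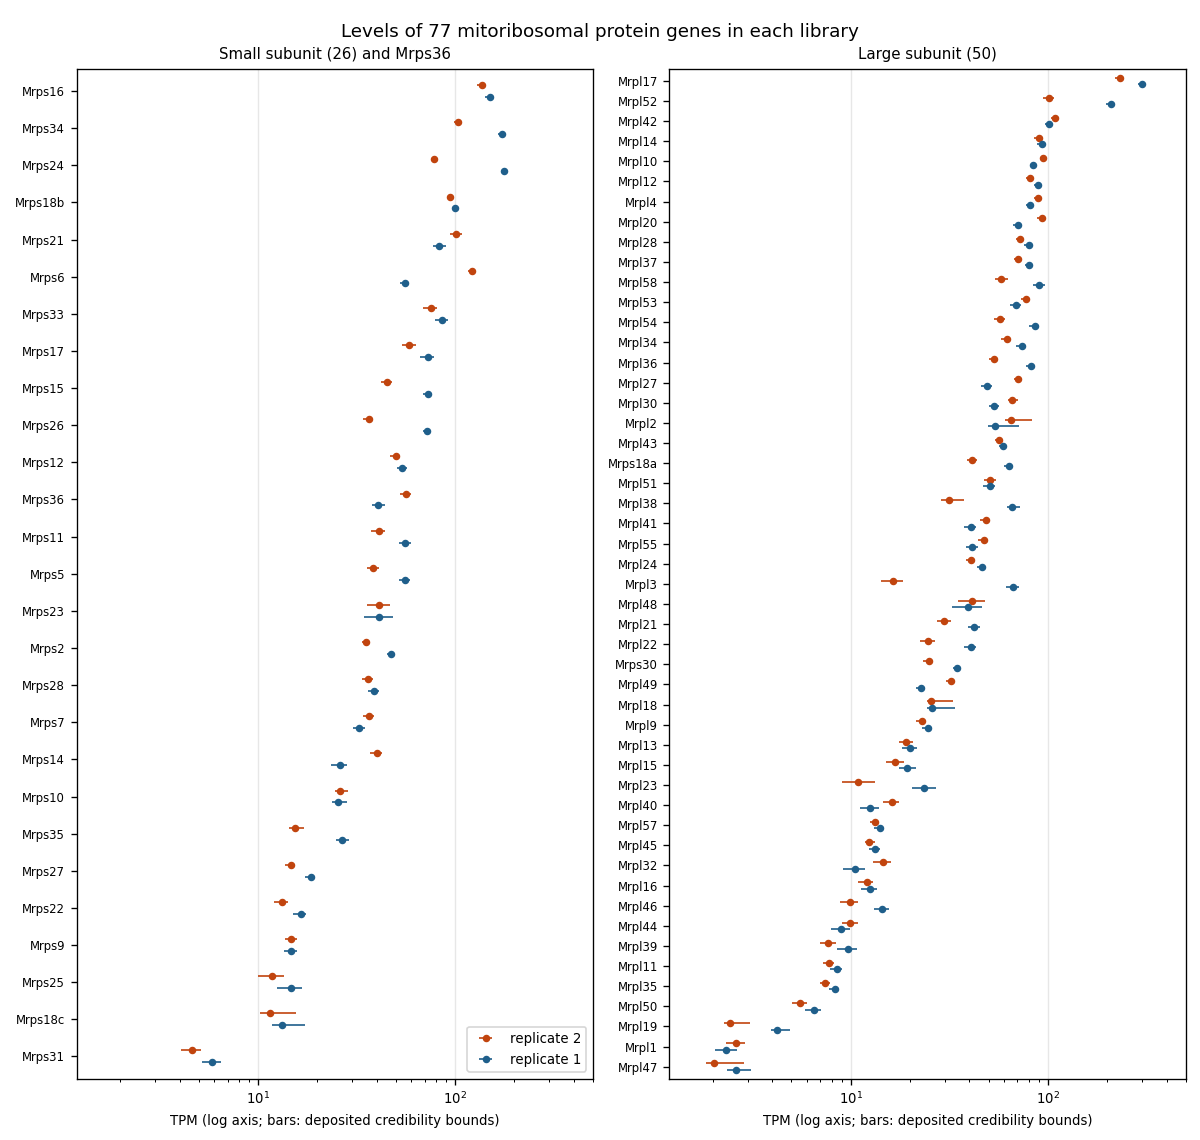
TPM of each of the 77 genes (log axis) in replicate 2 and replicate 1, for the small subunit with Mrps36 at left and the large subunit at right, ordered by mean TPM; bars are the credibility bounds deposited with the tables. Mrpl17 lies at the top with 232 TPM in replicate 2 and 302 TPM in replicate 1, and Mrpl47 at the bottom with 2.02 and 2.62 TPM in the same order.

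The median TPM of the small subunit was 39.2 in replicate 2 and 50.5 in replicate 1, and that of the large subunit was 36.4 in replicate 2 and 41.8 in replicate 1. Proteins with a bacterial counterpart had a median of 40.1 TPM in replicate 2 and 47.2 TPM in replicate 1, and mitochondria-specific proteins one of 36.4 TPM in replicate 2 and 40.7 TPM in replicate 1. Within the stalk that binds translation factors, Mrpl10 had 94.7 TPM in replicate 2 and 84.4 TPM in replicate 1. Mrpl12, the stalk protein carried in several copies per ribosome, had 81.0 TPM in replicate 2 and 88.9 TPM in replicate 1. Mrpl11, at the stalk base, had only 7.77 TPM in replicate 2 and 8.51 TPM in replicate 1. Members of a single structural element therefore differed in TPM far beyond the distance between the libraries. Their effective lengths in replicate 2 differed too, at 2663 nt for Mrpl11, 1489 nt for Mrpl10 and 1081 nt for Mrpl12. The part of annotated length in these TPM differences was not tested.

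The peptide tunnel exit gave a similar picture. Its 6 genes ran from Mrpl47 at the bottom of the whole family to Mrpl17 at its top. Mrpl45, which ties the ribosome to the inner membrane, had 12.4 TPM in replicate 2 and 13.3 TPM in replicate 1. Mrpl24 had 40.6 TPM in replicate 2 and 46.1 TPM in replicate 1, and Mrpl22 had 24.5 TPM in replicate 2 and 40.5 TPM in replicate 1. The 3 paralogs of the Mrps18 family, which occupy different sites of the ribosome, also differed. Mrps18b had 93.9 TPM in replicate 2 and 100 TPM in replicate 1. Mrps18a had 41.4 TPM in replicate 2 and 63.3 TPM in replicate 1. Mrps18c, the paralog at the bacterial site, had 11.5 TPM in replicate 2 and 13.2 TPM in replicate 1. Their order was the same in both libraries.

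Across the 77 genes, log2 TPM in replicate 2 and in replicate 1 had a Pearson correlation of 0.945 and a Spearman correlation of 0.919, which describes genes of the same 2 libraries and not independent samples. The coefficient of variation of TPM over the 2 libraries had a median of 13.8%, and 33 of the 77 genes were at 10% or less. Over all genes, many of them with few counts, the median was 47.3%. It was 35.8% over genes within the count range of the members. For nuclear respiratory chain genes it was 13.1%, and for cytosolic ribosomal proteins 54.8%, so a low value was not particular to the family. TPM was not scaled between the libraries, so a shift shared by many genes can enter these values. How much of the contrasts it made up was not computed. Longer transcripts tended to have lower mean TPM, with a Spearman correlation of -0.58 across members. TPM divides counts by length, so a negative value is partly built into the measure, and no conclusion is drawn from it. TPM was lower in replicate 2 for 53 genes and higher for 24. The deposited credibility bounds of TPM did not overlap for 48 genes, of which 15 were higher and 33 lower in replicate 2. The same share over all genes was not computed, so this count does not set the family apart from other genes.

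The promoters of the family were then read for motifs of factors that are known to act on nuclear genes for mitochondrial proteins. NRF1 and the ETS factor GABP are such activators, and YY1 acts at many promoters of respiratory chain and ribosomal protein genes. RefSeq windows on GRCm38.p6, from 250 bases before to 50 bases after a start, were available for 68 of the 77 genes, in 74 windows. Both strands were searched for the NRF1 motif (GCGCA, any base, GCGC), the ETS motif (CCGGAAGT) and the YY1 motif (AAGATGGCG). An NRF1 match lay in 17.6% of the members' windows, against 9.64% of the windows of genes at 1 TPM or more in both libraries and 4.60% of all 32851 windows. For ETS the shares were 14.9% in members, 7.83% in the detected genes and 3.89% in all windows. For YY1 they were 10.8% in members, 2.96% in the detected genes and 1.40% in all windows.

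At least 1 of these motifs was present in 30 of the 74 windows, or 40.5%, against 19.0% of the windows of detected genes and 9.24% of all windows. For nuclear respiratory chain genes the share was 39.4%, and these held NRF1 in 25.4%, ETS in 7.04% and YY1 in 9.86% of windows. Cytosolic ribosomal proteins had any of the 3 in 28.8% of windows, with NRF1 in 6.85%, ETS in 16.4% and YY1 in 6.85%. The members were thus below the respiratory chain for NRF1 and below the cytosolic ribosomal proteins for ETS. A single member window held both an NRF1 and an ETS match. The members' windows had a median GC content of 58.8% with 21.5 CpG sites, those of detected genes 60.7% with 20 sites, and all windows 52.7% with 7 sites. A TATA box motif, TATAAA, was found in 6.76% of members' windows, 7.06% of the detected genes' and 13.6% of all windows. The median of mean TPM was 23.8 for the 13 genes with an NRF1 match and 44.4 for the 55 others, and the medians of the log2 ratio were 0.56 and 0.49 in that order. For YY1 the levels lay the other way, with medians of 60.0 TPM for the 8 genes with a match and 41.4 TPM for the others, and of 0.35 and 0.55 for the log2 ratio. For ETS the medians were 41.6 TPM for the 11 genes with a match and 44.4 TPM for the others, and 0.56 and 0.52 for the log2 ratio. These are descriptions of small groups with no test. A match is a run of letters and not a bound site.

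**Figure D2:**
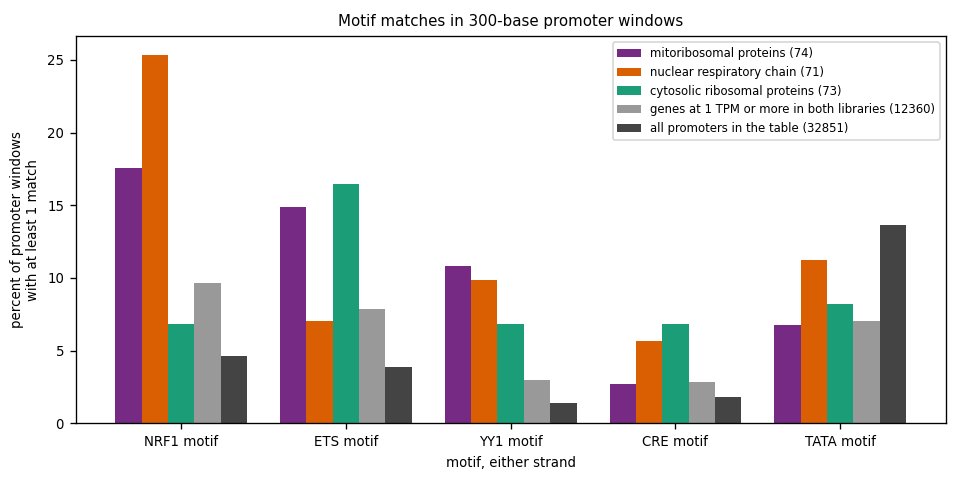
Percent of promoter windows with at least 1 match to each motif on either strand, for mitoribosomal proteins, nuclear respiratory chain genes, cytosolic ribosomal proteins, genes at 1 TPM or more in both libraries and all windows of the table. The mitoribosomal bars stand above both background bars for NRF1, ETS and YY1, at 17.6%, 14.9% and 10.8% of windows, but below the respiratory chain for NRF1 (25.4%) and below the cytosolic ribosomal proteins for ETS (16.4%).

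The following stretches of 30 bases show the matches upstream of the start in the genes of highest mean TPM for each motif, with the motif in capitals, read 5′ to 3′ on the gene's strand of GRCm38.p6. The NRF1 matches are from Mrpl17 (chr7:105811117-105811146, minus strand), Mrps21 (chr3:95871586-95871615, minus strand) and Mrpl12 (chr11:120484546-120484575, plus strand). In Mrps21 and Mrpl12 the motif is on the opposite strand, so that the capitals show its reverse complement. Their first bases lie 49, 91 and 81 bp before the start, in that order, and no match in these stretches overlaps another.
Mrpl17: aggctctgatGCGCACGCGCaaacgcggta
Mrps21: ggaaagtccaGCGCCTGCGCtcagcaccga
Mrpl12: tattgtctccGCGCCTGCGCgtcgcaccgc
The ETS matches are from Mrpl27 (chr11:94653725-94653754, plus strand), Mrpl43 (chr19:45006443-45006472, minus strand) and Mrps26 (chr2:130563727-130563756, plus strand, where the motif is on the opposite strand). Mrpl27 is shown also because it is among the genes over 2-fold apart below.
Mrpl27: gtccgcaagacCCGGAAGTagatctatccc
Mrpl43: catgccacaaccccggaaCCGGAAGTcacc
Mrps26: tggtgctccgcggccACTTCCGGgccgggc
Upstream YY1 matches were present in 2 members, Mrpl36 (chr13:73330967-73330996, plus strand) and Mrps11 (chr7:78783012-78783041, plus strand), both with the motif on the opposite strand.
Mrpl36: acgtgaccttaCGCCATCTTtcttcctggc
Mrps11: cctacgggcgcCGCCATCTTtctgtcttcc

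Mrpl45 was the member with 2 NRF1 matches upstream, and Mrps14, which was over 2-fold higher in replicate 2, had none of the 3 motifs there. Their 250 bases before the start, chr11:97315466-97315715 and chr1:160194965-160195214, both on the plus strand, held no annotated exon. GC content was 54.4% for Mrpl45 and 58.8% for Mrps14.
Mrpl45: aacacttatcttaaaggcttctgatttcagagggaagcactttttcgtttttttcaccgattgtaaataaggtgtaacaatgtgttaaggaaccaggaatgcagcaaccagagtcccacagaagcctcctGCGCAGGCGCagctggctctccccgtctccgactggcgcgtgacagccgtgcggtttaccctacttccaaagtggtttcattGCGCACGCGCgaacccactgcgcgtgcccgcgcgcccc
Mrps14: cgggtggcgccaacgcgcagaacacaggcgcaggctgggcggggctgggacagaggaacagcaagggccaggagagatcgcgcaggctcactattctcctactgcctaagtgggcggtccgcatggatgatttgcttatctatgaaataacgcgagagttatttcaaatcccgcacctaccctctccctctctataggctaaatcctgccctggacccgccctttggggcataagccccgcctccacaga

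Many of these genes share their promoter region with another gene. A protein-coding gene started on the opposite strand within 1000 bp upstream for 18 of the 77 genes (23.4%), against 1491 of 22028 protein-coding genes of the annotation (6.77%). The median distance between the starts was 82 bp. Mrpl49 started 59 bp from Fau, which encodes a ribosomal protein of the cytosol. Mrps12, a protein of the decoding centre, started 172 bp from Sars2, the mitochondrial seryl-tRNA synthetase, and Mrpl32 started 75 bp from the proteasome subunit gene Psma2. Of the 18 genes, 16 had a higher log2 ratio than their partner. The medians were 0.56 for these members and 0.09 for the partners, against 0.50 over all 77 genes and -0.0018 over all genes. Some partners had few reads, such as Lrrc46 with 5 counts in replicate 2 and 23 counts in replicate 1. Other pairings of a member with a gene were not compared, so the count of 16 is not a result about shared promoters. In addition, Mrps11 and Mrpl46 overlapped each other on opposite strands.

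The libraries were next compared gene by gene. Counts were scaled with TMM factors, under which the median log2 ratio of all genes was -0.0018. The median log2 ratio of the 77 genes was 0.50, with an interquartile range of 0.17 to 0.73. The ratio was above 0 for 65 genes and below 0 for 12. Counting intervals of 95%, which cover counting error only, lay wholly above a ratio of 1 for 61 genes, wholly below for 8 and on both sides for 8. Of all 17180 genes compared, 8555 had a ratio above 0. Of the 10327 genes within the count range of the members, 5163 did. The interval counts were not made over all genes, so they have no background share beside them.

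This direction rested on the scaling. Scaling by the total gene count put the median of all genes at -0.53 and that of the 77 genes at -0.01, with 37 genes above 0. Scaling by the spike-ins put them at -0.47 for all genes and 0.04 for the 77, with 42 genes above 0. Relative to all genes, the family was higher in replicate 2 by 0.50 on the log2 scale under TMM and by 0.51 under total counts and under the spike-ins. On TPM with a pseudocount of 0.1 the members stood 0.39 above the genes at 1 TPM or more in both libraries, although their own median was -0.13. That gene set is not the one used under the scalings, which held genes whose scaled counts averaged 10 or more.

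The call of a difference over 2-fold asked for 100 scaled counts or more on average and for a counting interval entirely above 2 or below 0.5. Of the 77 genes, 4 were called (5.19%), all higher in replicate 2. Over all 13424 genes with such counts, 23.1% were called, 10.6% higher and 12.6% lower in replicate 2. Among genes within the count range of the members the share was 20.4%, with 8.17% higher and 12.2% lower in replicate 2. At a threshold of 1.5-fold, 20 members were called (26.0%), all higher in replicate 2, against 39.8% of all genes, of which 20.3% were higher and 19.5% lower.

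Mrps6, a small-subunit protein with a bacterial counterpart, was the farthest apart. It had 3370 counts and 122 TPM in replicate 2, against 1322 counts and 55.7 TPM in replicate 1, a ratio of 3.39 (3.18 to 3.62). It lies at chr16:92058270-92112227 on the plus strand and overlaps Slc5a3, a gene for an inositol transporter, on the same strand. Slc5a3 itself had 5616 counts in replicate 2 and 2395 counts in replicate 1, a ratio of 3.12. Reads of such overlapping genes are divided by the counting model, so the value of Mrps6 is uncertain. It was the only gene of the 4 that stayed called under total-count scaling and under spike-in scaling.

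Mrpl27, a protein that lies near the peptidyl transferase centre in bacteria, had 1637 counts in replicate 2 and 968 counts in replicate 1, a ratio of 2.25 (2.08 to 2.44). It overlaps Eme1 on the opposite strand. Mrps14, a small-subunit protein with a bacterial counterpart, had 993 counts in replicate 2 and 592 counts in replicate 1, a ratio of 2.23 (2.02 to 2.48). Mrpl49, a mitochondria-specific large-subunit protein, had 2130 counts in replicate 2 and 1294 counts in replicate 1, a ratio of 2.19 (2.04 to 2.35). These 3 ratios lay just past the threshold. Just inside it were Mrps36, with a ratio of 2.15 (1.96 to 2.37), Mrpl32, with 2.15 (1.81 to 2.55), and Mrpl20, with 2.04 (1.91 to 2.19).

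**Figure D3:**
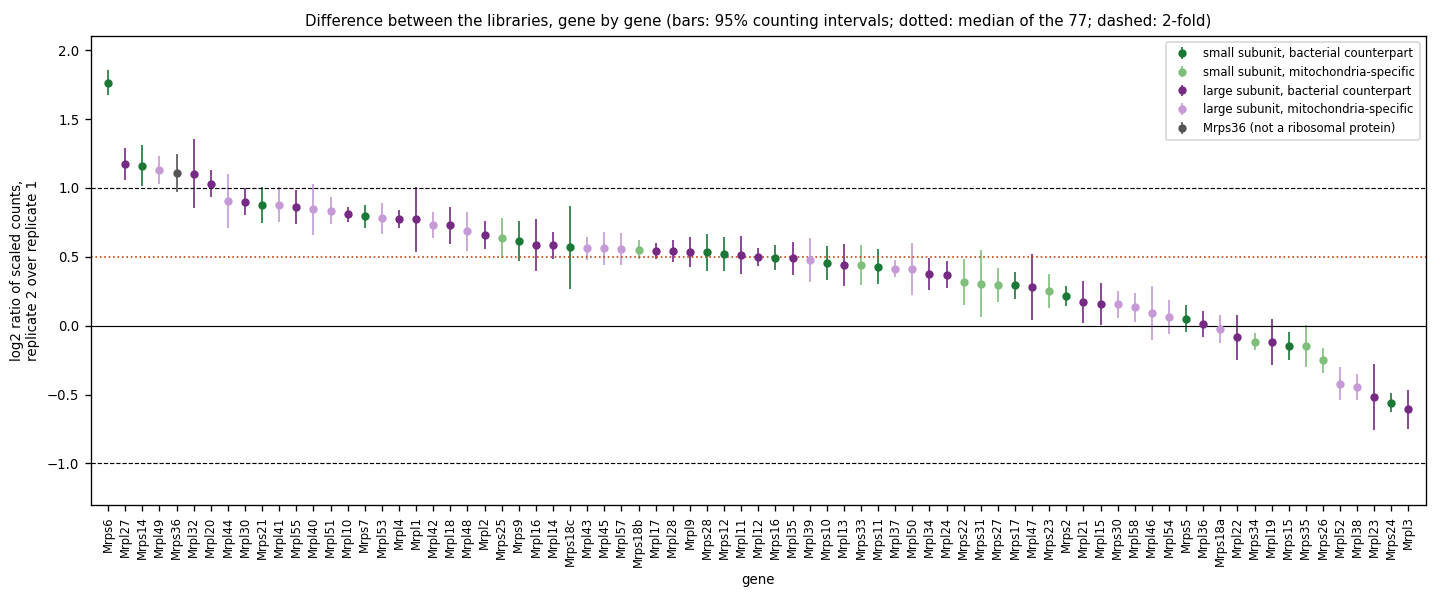
Log2 ratio of scaled counts, replicate 2 over replicate 1, for the 77 genes in falling order, with 95% counting intervals and colours by subunit and ancestry; the dotted line is the median of 0.50 and the dashed lines mark 2-fold. Most points lie between 0 and 1, Mrps6 stands apart at 1.76, and 12 genes lie below 0; the position of 0 depends on the scaling.

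At the other end, Mrpl3, a large-subunit protein with a bacterial counterpart, had 605 counts in replicate 2 and 1226 counts in replicate 1, a ratio of 0.66 (0.60 to 0.72). Mrps24 had 2505 counts in replicate 2 and 4911 counts in replicate 1, a ratio of 0.68 (0.65 to 0.71), and was over 2-fold lower in replicate 2 under total-count scaling. It overlaps Urgcp on the same strand. Mrpl23, Mrpl38, Mrpl52, Mrps26, Mrps35 and Mrps15 followed, with ratios of 0.70 to 0.90. The interval of Mrps35 reached 1.00 and that of the other 5 lay below 1.

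The median log2 ratio was 0.43 for the small and 0.54 for the large subunit. By ancestry, the medians were 0.51 for the small-subunit proteins with a bacterial counterpart and 0.30 for the mitochondria-specific ones. In the large subunit they were 0.53 with a bacterial counterpart and 0.56 for the mitochondria-specific ones. Whether the subunits or ancestries differed was not tested. The SD of the log2 ratio over single genes was 0.44. Of 14 members known as human disease genes of mitochondrial translation, 1 was called, Mrps14, with a list median of 0.44.

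On TMM-scaled counts, the members and the protein genes of the cytosolic ribosome had medians on opposite sides of 0. By summed TPM, both lists were higher in replicate 1. The members summed to 3584 TPM in replicate 2 and 4171 TPM in replicate 1. The cytosolic list summed to 34388 TPM in replicate 2 and 84122 TPM in replicate 1. Cytosolic ribosomal protein genes had a median of 292 TPM in replicate 2 and 627 TPM in replicate 1. Their median log2 ratio was -0.57, and 7 of 78 were called, all lower in replicate 2. The members' median log2 ratio was 1.07 above theirs, a difference that no scaling between libraries can alter. Summed TPM of the members was 10.4% of that of the cytosolic ribosomal proteins in replicate 2 and 4.96% in replicate 1.

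Nuclear genes of the respiratory chain and ATP synthase had a median of 189 TPM in replicate 2 and 174 TPM in replicate 1. Their median log2 ratio was 0.81, which is 0.31 above that of the members, and 12 of 81 were called higher and 1 lower in replicate 2. The templates of the mitoribosome, the 13 mitochondrial mRNAs, had a median log2 ratio of 1.54, and all 13 were called higher in replicate 2. Summed TPM of the members was 2.28% of that of the mitochondrial mRNAs in replicate 2 and 6.41% in replicate 1. The white adipocyte markers had a median log2 ratio of 2.34. The members' median thus lay above that of the cytosolic ribosomal proteins and below those of the other 3 lists.

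**Figure D4:**
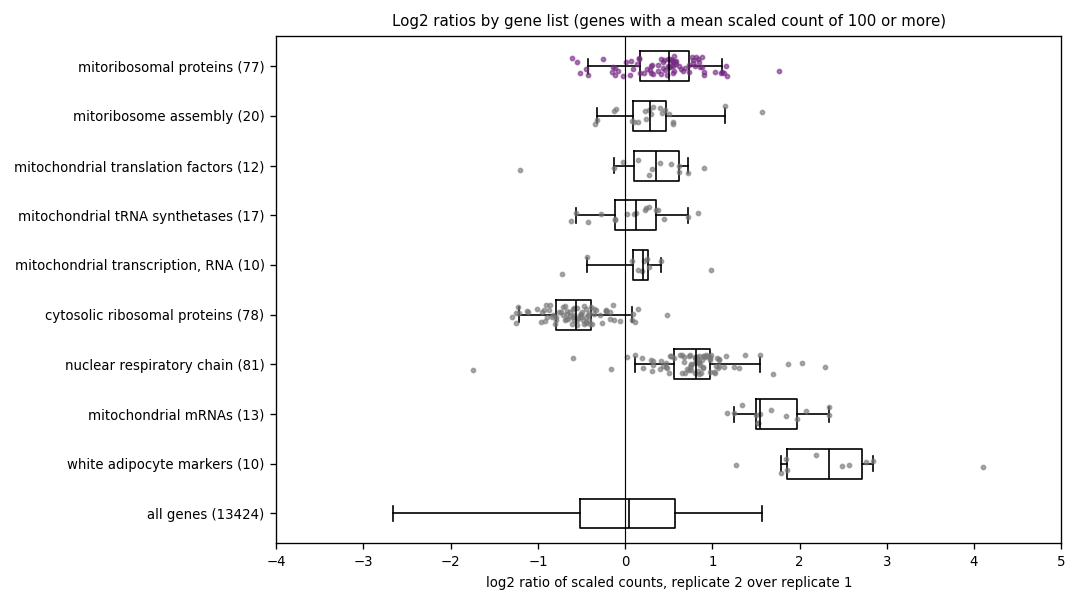
Log2 ratio of scaled counts, replicate 2 over replicate 1, by gene list, for genes with a mean scaled count of 100 or more; points are genes, boxes give median and quartiles and whiskers the 5th to 95th percentile. The mitoribosomal proteins centre on 0.50, cytosolic ribosomal proteins on -0.57, and mitochondrial mRNAs on 1.54.

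The other gene lists of mitochondrial translation had lower median log2 ratios than the members. Translation factors had a median log2 ratio of 0.35, with none of 12 called. The highest of these by mean TPM were Oxa1l, which inserts new chains into the inner membrane, with 70.5 TPM in replicate 2 and 121 TPM in replicate 1, and the elongation factor Tufm, with 87.3 TPM in replicate 2 and 112 TPM in replicate 1. Aminoacyl-tRNA synthetases of mitochondria had a median log2 ratio of 0.13 with none of 17 called, and genes of mitochondrial transcription and RNA handling one of 0.20 with none of 10 called. Of 20 assembly factors, 2 were called, both higher in replicate 2, with a list median of 0.29. Mpv17l2, an assembly factor of the large subunit, had 102 TPM in replicate 2 and 53.3 TPM in replicate 1, a ratio of 2.96 (2.79 to 3.15). Mtg1, a GTPase of assembly, had 32.8 TPM in replicate 2 and 25.1 TPM in replicate 1, a ratio of 2.22 (2.04 to 2.42).

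Mitoribosomal proteins that lack the Mrpl or Mrps symbol were looked at beside the members. Aurkaip1, of the small subunit, had 131 TPM in replicate 2 and 104 TPM in replicate 1, and its ratio of 1.95 did not pass the threshold. Dap3, a GTP-binding protein of the small subunit, had 42.2 TPM in replicate 2 and 52.1 TPM in replicate 1. Chchd1 and Ptcd3 had ratios of 1.23 and 1.59. Gadd45gip1, of the large subunit, had 7.50 TPM and 754 counts in replicate 2, against 27.6 TPM and 2368 counts in replicate 1. Its ratio of 0.42 (0.39 to 0.46) was the only called value among these 5 genes, and no member was called lower in replicate 2. Among 9 nuclear regulators of mitochondrial genes, Myc and Pprc1 were called, both lower in replicate 2, with ratios of 0.21 and 0.40.

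Gene-level TPM does not say which transcripts were counted. The tables listed 275 transcripts of the members, and 58 of the 77 genes had several. In 54 of these 58 the same transcript led in both libraries, and in 4 the lead differed (Mrpl24, Mrps10, Mrps23 and Mrps25). Transcript classes were taken from GENCODE release M21, matched by identifier, and 239 of the 275 transcripts had the same length there as in the tables. Transcripts classed as protein coding held 83.8% of the members' TPM in replicate 2 and 80.3% in replicate 1, and 49 genes were at 90% or more in both libraries.

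In 12 genes, protein-coding transcripts took less than 50% of TPM in both libraries. By counts, the coding share of Mrps25 and Mrpl51 was above 50% in both libraries. That of Mrpl15 was above 50% in replicate 1 only, and that of Mrpl58 in replicate 2 only. Mrps26 was the clearest case. Its leading transcript is classed as having a retained intron and took 95.2% of TPM in replicate 2 and 97.2% in replicate 1, so that the coding transcript had 1.77 TPM in replicate 2 and 2.01 TPM in replicate 1. Mrps26 thus ranked 29 of 77 by gene TPM and 76 by coding TPM. Mrps33 ranked 15 by gene TPM and 65 by coding TPM, at 6.80 TPM in replicate 2 and 6.40 TPM in replicate 1. Mrpl32 had a single listed transcript, classed as subject to nonsense-mediated decay, but its model changed from 768 to 658 nt between the releases and the class may not apply. The 10 genes of highest mean TPM were also the 10 highest by coding TPM. Mrpl17 stayed first, with 158 TPM in replicate 2 and 238 TPM in replicate 1 in coding transcripts, against 137 and 150 TPM for Mrps16 and 102 and 208 TPM for Mrpl52 in the same order. Most of this coding TPM of Mrpl17 came from a short transcript of 380 nt, with 115 TPM in replicate 2 and 199 TPM in replicate 1. A coding transcript of 1028 nt had 0 TPM in replicate 2 and 2.29 TPM in replicate 1. The first rank of Mrpl17 by coding TPM thus rested on a short transcript model. A transcript classed as subject to nonsense-mediated decay took 32.2% of the TPM of Mrpl17 in replicate 2 and 21.1% in replicate 1.

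**Figure D5:**
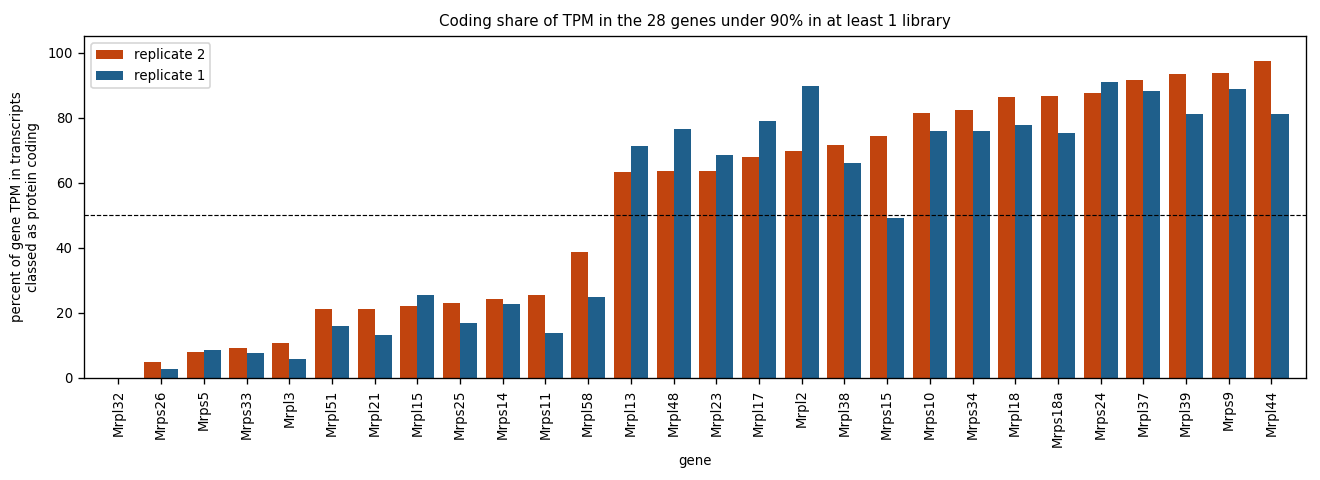
Percent of each gene's TPM in transcripts classed as protein coding, in replicate 2 and replicate 1, for the 28 genes under 90% in at least 1 library; the dashed line marks 50%. The bars fall below 50% in both libraries for the 12 genes at left, from Mrpl32 at 0% to Mrpl58 at 38.8% in replicate 2 and 25.0% in replicate 1.

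Shares of TPM weigh short transcripts more heavily than shares of counts do, and the coding share could differ between them in either direction. Mrpl17 had 67.8% of TPM in coding transcripts in replicate 2 and 78.9% in replicate 1, but 56.3% and 65.0% of its counts in the same order. Mrps25 had 22.9% of TPM in its coding transcript in replicate 2 and 16.7% in replicate 1, but 82.8% and 75.0% of its counts in the same order. Over all members, coding transcripts took 88.6% of counts in replicate 2 and 85.0% in replicate 1. The ratio of coding counts had a median log2 value of 0.52 over the 76 genes that had any, with 67 above 0. The sign differed from that of the whole gene for 5 genes. Mrps26 was 1 of them, with a log2 ratio of -0.25 for the gene and 0.46 for its coding transcript.

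For Mrpl3, TPM and counts gave different distances between the libraries. Its leading transcript, Mrpl3-206, is 457 nt long and classed as subject to nonsense-mediated decay. It took 51.8% of the gene's TPM in replicate 2 and 80.8% in replicate 1, with 89.1 counts in replicate 2 and 492 counts in replicate 1. The gene's effective length was 838 nt in replicate 2 and 488 nt in replicate 1. Gene TPM was 16.4 in replicate 2 and 66.8 in replicate 1, a ratio of 0.24, against 0.66 on scaled counts. Part of this gap is the scaling, which TPM does not carry: Mrpl42, which had a single transcript in use in both libraries, had a ratio of 1.07 on TPM and 1.66 on scaled counts. Shares of a single transcript shifted by 20 percentage points or more in 8 genes, the largest being 32.3 points for a transcript of Mrps25.

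Processed copies of members also take reads. Mrpl23, a protein of the tunnel exit on chromosome 7, had 10.8 TPM and 225 counts in replicate 2, against 23.7 TPM and 429 counts in replicate 1. Mrpl23-ps1, its processed pseudogene at chr2:74591330-74591909, was given 64.6 TPM and 1030 counts in replicate 2, against 93.8 TPM and 1289 counts in replicate 1. The copy thus took 82.1% of the summed counts in replicate 2 and 75.1% in replicate 1. Mrpl23 alone had a log2 ratio of -0.52, and the sum of both had one of -0.04. The level and the ratio of Mrpl23 are therefore uncertain. Mrpl48-ps and the 3 copies of Mrps36 stayed at 1.14 TPM or less. Counts were fractional, which the counting model gives where reads are shared, in 12 of the 77 genes and whole within 0.005 in the other 65.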

How the data were processed

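Per the labels, polyA-selected, ribosomal RNA-depleted RNA over 200 nt with added spike-ins was read as stranded 76 nt pairs. Per the notes deposited beside the tables, the authors aligned reads to mm10 with GENCODE release M4; the sources used here do not name the counting program. The authors' gene and transcript tables hold expected counts, in which reads that match several features are divided, and deposited TPM, over all features with the spike-ins, and FPKM values. In the deposited transcript tables, each transcript also has its percent of the TPM of its gene. Further tables on build mm9 were not used here.

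Symbols were matched by identifier. GENCODE release M21, on the matching build GRCm38, gave gene positions and transcript classes, and RefSeq gave promoters. Annotated genes alone entered library sizes (57500971 counts in replicate 2, 53601218 in replicate 1). Expected counts were rounded and scaled with TMM factors (edgeR 4.0.16, R 4.3.3), 0.837 for replicate 2 and 1.20 for replicate 1. Each ratio has a 95% interval, exact by Clopper-Pearson, from how both counts divide (scipy 1.17.1), which covers counting error only; list medians use genes whose scaled counts average 10 or more. The steps were tested on simulated counts with counting noise only and with changes well beyond the 2-fold threshold. Such data do not test calls near that threshold, spread between replicates or scaling of libraries that differ in composition. The alternatives were scaling by DESeq2 1.42.0, by spike-ins or by total counts, FPKM, posterior means, other count or TPM minimums, pseudocounts, a 1.5-fold threshold and leaving out a replicate. The members and lists were chosen with earlier results of these data known. Named genes are the 10 highest and 8 lowest members by mean TPM, the 8 highest and 8 lowest by ratio, every member over 2-fold apart, fixed structural groups (stalk, tunnel exit, Mrps18 paralogs, Mrps30, Mrps36, mitoribosomal proteins with other symbols), up to 8 by transcript use, and, of other lists, high or called genes; genes named in the transcript, promoter and neighbour results beyond these were chosen after their values were seen.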

Additional observations from a re-analysis of the deposited data

How the results depend on the processing

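The median of mean TPM over the members was 43.4 as reported, 31.1 with deposited FPKM and 29.7 with protein-coding transcripts only, an alternative chosen after seeing the data; it ranged from 40.1 to 42.3 when either replicate was left out. The count of members at 1 TPM or more in both libraries was 73 at 5 TPM and 76 with coding transcripts, and 77 under the other alternatives tried, with each replicate left out included. The median log2 ratio was -0.0145 with total-count scaling, 0.0434 with spike-in scaling, and -0.13 on TPM with a pseudocount of 0.1 or of 1, where the median of all genes moved as well. For TPM, all genes were those at 1 TPM or more in both libraries. The count over 2-fold apart was 4 as reported, 2 with total-count scaling (1 higher and 1 lower in replicate 2), 1 with spike-in scaling and 20 at 1.5-fold. Mrpl27, Mrpl49 and Mrps14 were not called under total-count or spike-in scaling, and DESeq2 size factors, posterior mean counts and the count minimums changed no member's call. No replicate could be left out of a ratio, since each side is 1 library. No paired analysis was possible because the series holds a single group. Libraries of this depth gave counting intervals with a median width of 16.8% of a member's ratio, which is the precision that depth allowed.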

Other observations

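Mterf3, a regulator of mitoribosome assembly and not a member, had the highest mean TPM among the assembly factors, with 103 TPM in replicate 2 and 259 TPM in replicate 1. Its counts were 712 in replicate 2 and 806 in replicate 1, a ratio of 1.18 after scaling. TPM carries none of the scaling and also depends on effective length, so TPM and scaled counts are not on the same footing here. Mrpl42, which had a single transcript in use, differed less between the measures, with ratios of 1.07 on TPM and 1.66 on scaled counts. The scaling alone thus does not account for the gap of Mterf3, and the rest was not examined.

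The ribosomal RNAs of mitochondria, measured after depletion of ribosomal RNA per the labels, had ratios on opposite sides of 1. The RNA of the small subunit, mt-Rnr1, had 78.3 TPM in replicate 2 and 165 TPM in replicate 1, a ratio of 0.74. The RNA of the large subunit, mt-Rnr2, had 593 TPM in replicate 2 and 485 TPM in replicate 1, a ratio of 1.90.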
